A study of Rattus norvegicus with 9 samples.

Results

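The let-7 and miR-98 family was followed in rat serum through its 9 mature 5p arms, which are let-7a, let-7b, let-7c, let-7d, let-7e, let-7f, let-7g, let-7i and miR-98. The members were taken by name from a matrix of read counts for 567 miRNAs. All 9 were found there, and all 9 were among the 294 miRNAs with enough counts to be tested. Small RNA had been sequenced from the serum of adult male Wistar rats, labelled wild type, in 3 groups of 3 libraries. LPD stands for late Parkinson's disease. These animals received rotenone, an inhibitor of mitochondrial complex I, at 2 mg per kg by intraperitoneal injection every day for more than 40 days and were sampled at a terminal stage. EPD, the early stage, had the same daily dose for 10 days. The third group is named Control. For all 9 libraries the treatment label and the treatment protocol, which speaks of rotenone in rats of all groups, read alike, and what the Control animals were given is not stated. Injected rotenone acts on the whole body, so the model is not limited to dopaminergic neurons. No label says whether a library came from 1 animal or from a pool, so p-values measure the spread between these libraries, which may be technical.

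The LPD libraries were shallow. They held 132609 to 305019 counts, against 1136537 to 1668807 in EPD and 1108167 to 1539557 in Control. From the number of miRNAs without any count, the LPD libraries were estimated to rest on 8315, 4279 and 10755 molecules. By this estimate 12.3 to 49.1 counts stood for 1 molecule, against at most 2.73 in the other 6 libraries. It takes LPD to have the mean profile of Control and EPD, so miRNAs truly lost in LPD would lower it. LPD 3 differed from LPD 1 and LPD 2 in several members. Control 2 stood apart in that the hepatocyte miRNA miR-122-5p took 44.3% of its counts, against at most 5.14% in any other library. Levels are given as CPM, counts scaled to a common library size, with TMM factors (trimmed mean of M-values) between libraries. These levels are relative to the other miRNAs of a library. A member that rose in CPM did so against those miRNAs, and a larger amount in serum is not shown, since amounts were not measured. Serum miRNA comes from many cell types, and a larger number of releasing cells cannot be told apart here from more RNA released per cell.

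let-7 was first described in Caenorhabditis elegans, where it times the passage from larval to adult cell fates. In mammals the family is abundant in differentiated tissues and in blood cells, and it represses growth-promoting genes such as Ras, Myc, Hmga2 and Lin28. LIN28 proteins in turn block the maturation of let-7 precursors. In mice, extracellular let-7b has been described as a ligand of the RNA sensor TLR7 in neurons and microglia.

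The mature sequences show why the members are treated as a family and how little separates one from another. They are given 5′ to 3′ from RefSeq (table build GRCr8), which held all 9, with the seed (bases 2 to 8), the stretch that pairs with target mRNAs, in capitals.
let-7a-5p: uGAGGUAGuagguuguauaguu
let-7b-5p: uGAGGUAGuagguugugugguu
let-7c-5p: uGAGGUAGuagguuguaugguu
let-7d-5p: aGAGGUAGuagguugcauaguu
let-7e-5p: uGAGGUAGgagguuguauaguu
let-7f-5p: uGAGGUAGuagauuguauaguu
let-7g-5p: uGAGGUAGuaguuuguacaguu
let-7i-5p: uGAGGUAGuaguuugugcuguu
miR-98-5p: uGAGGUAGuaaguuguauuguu

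All 9 have 22 bases and 1 seed in common, so they differ only outside it. Positions are counted from 1 at the 5′ end, with the base of let-7a-5p given first. let-7c-5p differs from let-7a-5p by A19G, let-7e-5p by U9G and let-7f-5p by G12A, and these are changes of 1 base. let-7b-5p carries A17G and A19G, let-7d-5p U1A and U16C, and miR-98-5p G11A and A19U. let-7g-5p has G12U and U18C. let-7i-5p, the most distant from let-7a-5p, shares both and adds A17G and A19U. Over the 36 pairs of members the number of differing bases ran from 1 to 6, and 4 pairs differed at 1 base only. How reads with a mismatch were assigned is not given in the sources used here, so some exchange of reads between such neighbours cannot be told apart from true levels.

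Several members are made from more than 1 locus or share a transcript with relatives. The coordinates are those of the RefSeq table on GRCr8, whereas the submitters' processing notes name mRatBN7.2, and the deposited values carry no coordinates. let-7a-5p lies at chr17:16320145-16320166 (+ strand), just before let-7f-5p at chr17:16320508-16320529 and let-7d-5p at chr17:16322273-16322294, and again at chr8:50805219-50805240. A further copy of let-7f-5p stands at chrX:24460052-24460073, next to miR-98-5p at chrX:24460663-24460684. let-7b-5p at chr7:118684044-118684065 follows a copy of let-7c-5p at chr7:118683636-118683657, and the other copy of let-7c-5p is at chr11:29688127-29688148. let-7e-5p at chr1:67350243-67350264 lies between miR-99b-5p and miR-125a-5p. let-7g-5p (chr8:115701026-115701047) and let-7i-5p (chr7:60527935-60527956, - strand) have, like let-7e-5p, no other member beside them. Reads of a mature miRNA with 2 loci cannot be divided between them.

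Together the 9 members took 14.3 ± 4.13% of all counts in LPD, 10.3 ± 0.45% in EPD and 9.42 ± 4.23% in Control (SD, n = 3 each). By library the share was 16.2% (Wilson 95% interval 16.0 to 16.3%), 17.2% (17.0 to 17.3%) and 9.56% (9.40 to 9.72%) in LPD. It was 10.8% (10.8 to 10.9%), 10.1% (10.0 to 10.1%) and 10.0% (9.99 to 10.1%) in EPD, and 12.8% (12.8 to 12.9%), 4.68% (4.64 to 4.72%) and 10.7% (10.7 to 10.8%) in Control. LPD 1 and LPD 2 were thus the highest of all 9 libraries, while LPD 3 lay below every EPD library. The intervals treat every read as independent. Reads that repeat 1 molecule are not, so the LPD intervals are too narrow even for counting error. The low share of Control 2 went only in part with its miR-122-5p. With TMM factors its summed members, at 70051 CPM, were still the lowest of all 9 libraries, before LPD 3 at 83592 CPM. Leaving miR-122-5p out of the totals, the mean shares were 14.6% in LPD, 10.5% in EPD and 10.96% in Control. Without the most abundant miRNA of each library they were 20.7% in LPD, 13.2% in EPD and 12.3% in Control. No test was run on the sum, because the members were chosen with earlier results of these data known.

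The order of the members by mean level differed between the groups. In LPD it ran let-7b, let-7c, let-7a, let-7f, let-7i, let-7g, let-7d, let-7e and miR-98. In EPD it ran let-7i, let-7c, let-7b, let-7f, let-7a, let-7g, let-7d, let-7e and miR-98, and Control had the same order with let-7c before let-7i. Neighbours overlapped in range among the first 5 of LPD and between let-7d and let-7e there, among the first 3 of EPD and between let-7a and let-7g there, and among the first 6 of Control. By rank among all miRNAs let-7a-5p stood at 8, 8 and 16 in LPD and at 25 to 33 in the other 6 libraries. miR-98-5p was the rarest member throughout, at rank 95 to 160 among all miRNAs.

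**Figure D1:**
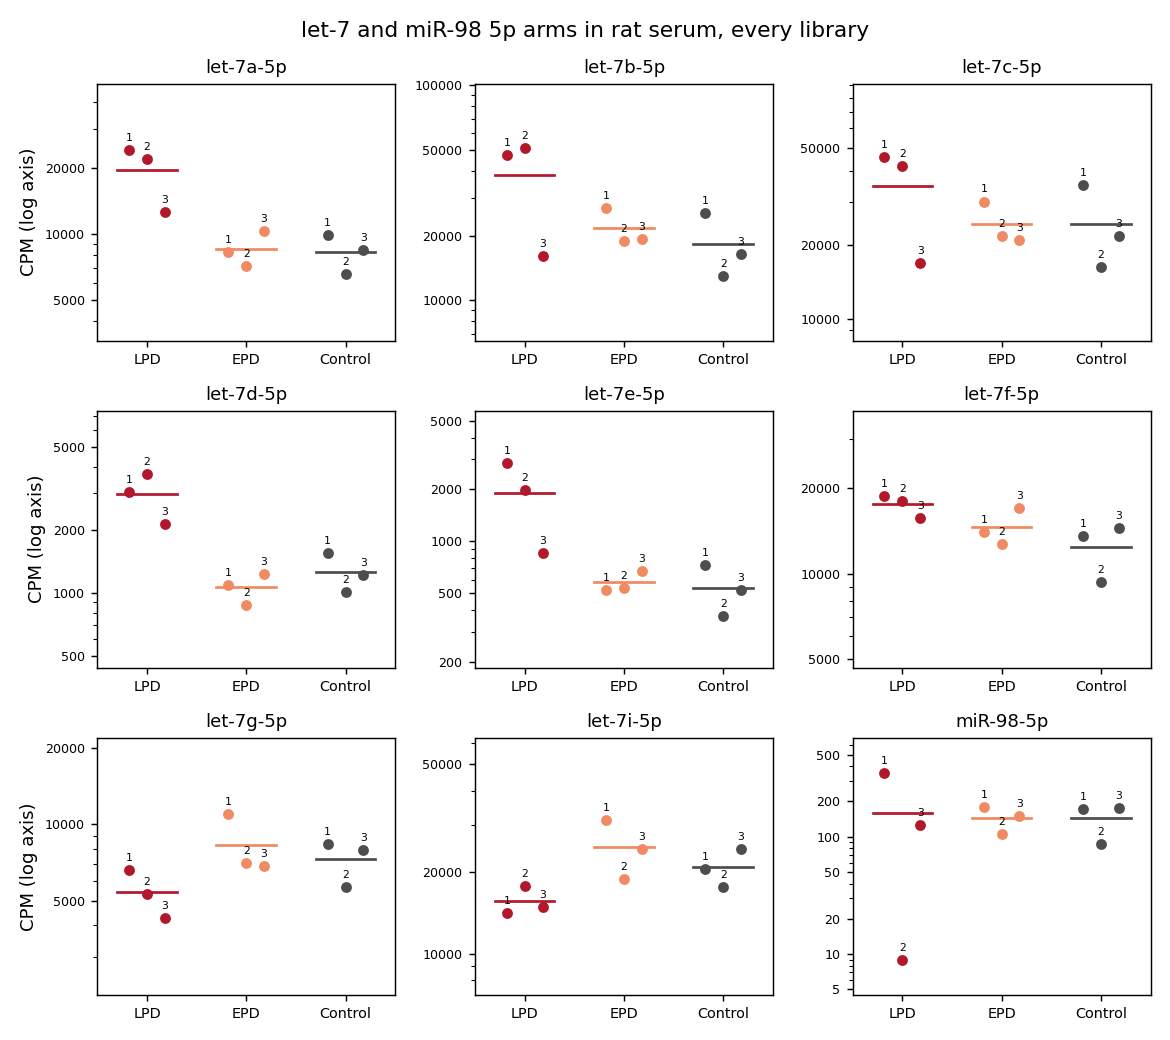
CPM of each member (log axis, 1 panel a member) in LPD, EPD and Control. Points are single libraries with their replicate number, and bars are the means of 3. All LPD points of let-7a-5p, let-7d-5p and let-7e-5p lie above every other point of their panel, and LPD 2 of miR-98-5p lies far below the rest at 9.0 CPM.

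let-7a-5p, let-7d-5p and let-7e-5p rose in LPD against Control, and no member fell. They were 3 of the 9 members, beside 4.42% of the 294 miRNAs tested that rose and 32.7% that fell in this comparison, by edgeR's quasi-likelihood test with Benjamini-Hochberg adjustment over all 294 (adjusted p under 0.05). The members' median log2 fold change was 0.51, against -1.04 over all 294 and -0.21 over the 124 miRNAs with counts in all 9 libraries. Of the 9, 7 had a positive log2 fold change, as had 30.6% of all tested, and 4 lay above Control without overlap, beside 6.46% of all. All members had counts in every library, so the 124 are the closer background. Of these 124, 57 were positive, 19 lay above Control without overlap, 12 rose and 27 fell.

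let-7e-5p, encoded beside miR-99b and miR-125a, changed most. It had 2855, 1998 and 857 CPM in LPD, against 731, 372 and 521 CPM in Control. Every LPD library was above every Control library, but LPD 3 only narrowly. The log2 fold change was 1.81 (SE 0.48, adjusted p = 0.0155), with means of 1903 ± 1002 CPM in LPD and 541 ± 181 CPM in Control (SD, n = 3 each). Its LPD counts stood for an estimated 23.5, 9.05 and 10.5 molecules, the fewest of the members that passed.

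let-7a-5p, the member taken as the family's type sequence, had 24143, 21969 and 12625 CPM in LPD, against 9916, 6548 and 8452 CPM in Control. LPD 3 was again the lowest of its group and still above all Control libraries. The means were 19579 ± 6119 CPM in LPD and 8305 ± 1689 CPM in Control (SD, n = 3 each). This was a 2.36-fold difference, with a log2 value of 1.24 (SE 0.31, adjusted p = 0.0126). It rested on more molecules than the other members that passed, an estimated 199, 99.5 and 155.

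let-7d-5p, from the cluster of let-7a and let-7f on chromosome 17, had 3027, 3703 and 2123 CPM in LPD, against 1556, 1013 and 1212 CPM in Control. The groups did not overlap. Its log2 fold change was 1.23 (SE 0.32, adjusted p = 0.0149), with an estimated 24.9, 16.8 and 26.1 molecules behind its LPD values. On counts per estimated molecule its adjusted p was 0.0460. Without Control 3, let-7d-5p (adjusted p = 0.0536) and let-7e-5p (adjusted p = 0.0564) no longer passed in edgeR's test, and without LPD 2 let-7d-5p did not (adjusted p = 0.0510). let-7a-5p passed in all 19 alternatives run, with adjusted p between 4.28e-04 and 0.0455.

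For let-7b-5p and let-7c-5p the LPD libraries parted. let-7b-5p, the most abundant member in LPD, had 47561, 50988 and 16054 CPM there, against 25547, 13008 and 16465 CPM in Control. LPD 1 and LPD 2 were above all Control libraries and LPD 3 was between them. The log2 fold change of let-7b-5p was 1.06 (SE 0.45), which did not pass edgeR's test (adjusted p = 0.10). let-7c-5p had 45653, 42219 and 16924 CPM in LPD, against 35221, 16339 and 21889 CPM in Control (0.51, SE 0.42, adjusted p = 0.385), with the same split. Leaving out LPD 3 brought let-7b-5p to 1.67 (adjusted p = 0.00718), let-7c-5p to 1.08 (adjusted p = 0.0374) and let-7f-5p to 0.80 (adjusted p = 0.0447), and the number of members that rose to 6.

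let-7f-5p had 18804, 18122 and 15757 CPM in LPD, against 13614, 9304 and 14487 CPM in Control. The 2 groups did not overlap either, but the gap was small and it did not pass in edgeR (log2 fold change 0.49, SE 0.25, adjusted p = 0.165). With DESeq2 let-7f-5p passed (0.77, adjusted p = 0.0152), as did let-7b-5p (1.37, adjusted p = 0.0332). let-7b-5p also passed in edgeR among miRNAs counted in all 9 libraries (1.35, adjusted p = 0.0430). let-7g-5p and let-7i-5p were the only members with negative values. let-7g-5p had 6641, 5322 and 4259 CPM in LPD, against 8339, 5669 and 7897 CPM in Control (-0.43, SE 0.29, adjusted p = 0.303). let-7i-5p had 14140, 17875 and 14867 CPM in LPD, against 20582, 17712 and 24437 CPM in Control (-0.42, SE 0.26, adjusted p = 0.255). For both, the highest LPD library reached into the range of Control. Under all 19 alternatives these 2 values stayed negative, from -0.07 to -0.48 for let-7g-5p and from -0.13 to -0.50 for let-7i-5p.

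miR-98-5p, the X-linked neighbour of let-7f, could not be judged in LPD. Its counts there were 105, 2 and 19 (348, 9.0 and 125 CPM), against 212, 68 and 306 counts (173, 86.9 and 177 CPM) in Control. Each of these LPD values lay under the level that 3 estimated molecules would give, which was 365 CPM in LPD 1, 662 CPM in LPD 2 and 244 CPM in LPD 3. Its log2 fold change of 0.15 had an SE of 1.02 (adjusted p = 0.913).

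**Figure D2:**
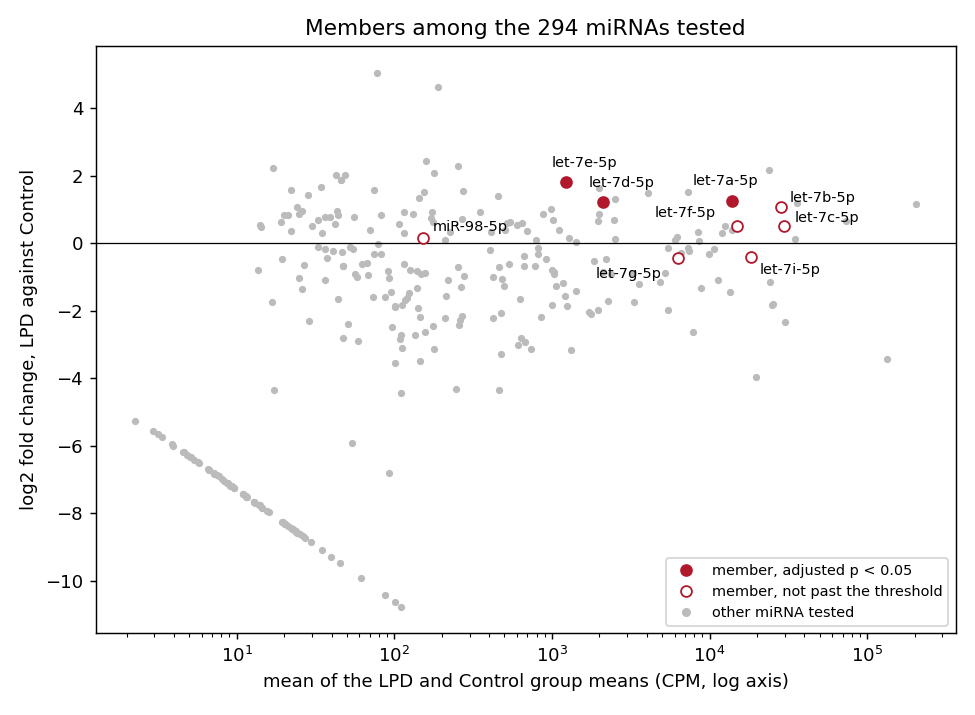
Log2 fold change in LPD against Control by mean level (CPM, log axis) for the 294 miRNAs tested, with the members in red and filled where the adjusted p was under 0.05. let-7a-5p, let-7d-5p and let-7e-5p lie above most miRNAs of like level, and the line of points at the lower left is formed by miRNAs with no count in LPD, whose fitted values are no measured folds.

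In EPD, after 10 days, no member passed against Control. By edgeR's quasi-likelihood test 0 of 9 members and 0.00% of all 294 miRNAs were called, with 0 members and 11 miRNAs at an unadjusted p under 0.05. DESeq2 called 0 members and 1 miRNA, and limma-voom 0 and 0. The members' log2 fold changes ran from -0.24 to 0.25, with a median of 0.10, against -0.05 over all 294. The adjusted p was 0.995 for 8 members and 0.9998 for miR-98-5p. Of the 9, 7 had a positive value, as had 46.9% of all tested.

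The EPD values of each member stood inside or across the range of Control, so no member separated the groups (12.9% of all tested did). let-7a-5p had 8273, 7125 and 10321 CPM in EPD, let-7d-5p 1091, 878 and 1224 CPM, and let-7e-5p 522, 540 and 674 CPM, against the Control values given above. let-7i-5p was at 31301, 18918 and 24486 CPM in EPD and let-7g-5p at 10961, 7029 and 6839 CPM, with EPD 1 the highest of all 9 libraries for both. let-7b-5p had 26852, 18838 and 19283 CPM, let-7c-5p 30163, 21849 and 21005 CPM, and let-7f-5p 14081, 12726 and 17024 CPM. miR-98-5p had 180, 106 and 151 CPM in EPD. For these 4 members too the EPD and Control ranges overlapped. The largest log2 fold changes were those of let-7i-5p (0.25, SE 0.26) and let-7d-5p (-0.24, SE 0.32), both smaller than their errors.

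Set against EPD, the same 3 members were higher in LPD. let-7d-5p rose by 1.47 on the log2 scale (SE 0.32, adjusted p = 0.00807), let-7e-5p by 1.72 (SE 0.48, adjusted p = 0.0198) and let-7a-5p by 1.19 (SE 0.31, adjusted p = 0.0165), by edgeR's test. The LPD and EPD libraries did not overlap for any of these 3 (6.80% of all tested lay higher in LPD without overlap). That made 3 of 9 members, beside 4.08% of all 294 miRNAs that rose and 32.7% that fell. The members' median was 0.52, against -0.92 over all 294, and 7 of 9 were positive, beside 33.7% of all. Over the 124 miRNAs with counts in all 9 libraries the median was -0.09. Of these 124, 60 were positive, 10 rose and 29 fell, and 20 lay above EPD and 43 below it without overlap. This comparison uses the LPD libraries again, so it is no independent repeat of the one with Control.

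let-7i-5p (-0.67, SE 0.26, adjusted p = 0.0738) and let-7g-5p (-0.61, SE 0.30, adjusted p = 0.145) did not pass against EPD, although each LPD library was below each EPD library, as was the case for 45.6% of all tested. let-7b-5p (0.82, SE 0.44), let-7c-5p (0.52, SE 0.42), let-7f-5p (0.27, SE 0.25) and miR-98-5p (0.15, SE 1.02) overlapped between LPD and EPD, with adjusted p from 0.202 to 0.920. let-7d-5p passed in all 19 alternatives. The call of let-7a-5p was lost without EPD 1 (adjusted p = 0.0538), EPD 2 (0.0715), LPD 1 (0.0548) or LPD 2 (0.0603), and that of let-7e-5p without EPD 1 (0.0609), EPD 2 (0.0750), EPD 3 (0.0515), LPD 1 (0.0573) or LPD 2 (0.0526). Without EPD 2, let-7i-5p passed as lower (-0.88, adjusted p = 0.0450), and without LPD 3, let-7b-5p passed as higher (1.33, adjusted p = 0.0170).

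**Figure D3:**
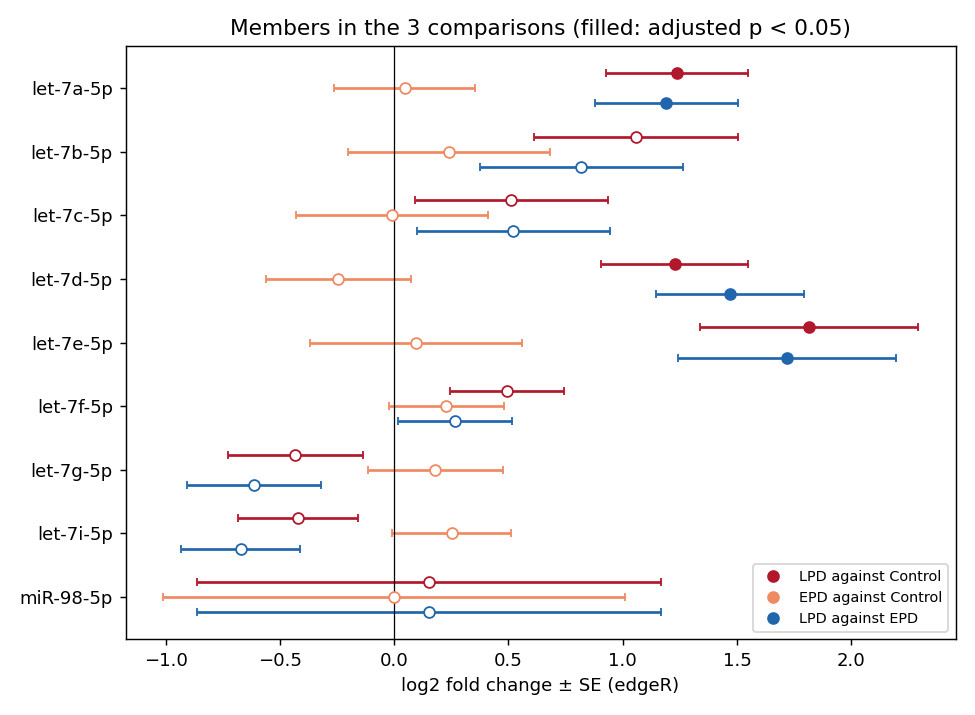
Log2 fold change with its SE for the 9 members in LPD against Control, EPD against Control and LPD against EPD (edgeR). Filled points passed an adjusted p of 0.05, which holds for let-7a-5p, let-7d-5p and let-7e-5p in both comparisons of LPD and for no member in EPD against Control.

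The mix of members within the family does not depend on how libraries are scaled. Each member was set against the sum of the other 8, as a log2 ratio with 0.5 counts added, and compared by exact two-sided permutation tests over libraries. With 3 libraries against 3 the smallest p is 0.1, so none of the 27 tests could pass 0.05, and the lowest value adjusted over them was 0.245. The description is therefore by overlap. Without any group difference, full separation of 3 libraries from 3 in either direction has a probability of 0.1. No share over other miRNAs was computed for these ratios.

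let-7a-5p made up 14.5 ± 0.83% of the family's counts in LPD, 8.34 ± 1.77% in EPD and 8.92 ± 0.39% in Control (SD, n = 3 each). Its LPD libraries gave 14.8, 13.5 and 15.1%, closer together than its CPM values, and LPD 3 was the highest. let-7d-5p made up 2.23 ± 0.35% in LPD, 1.03 ± 0.17% in EPD and 1.35 ± 0.09% in Control. let-7e-5p made up 1.34 ± 0.37%, 0.57 ± 0.13% and 0.57 ± 0.05% of the counts in LPD, EPD and Control. The ratios of all 3 were higher in every LPD library than in any EPD or Control library (exact permutation p = 0.1 in each comparison, n = 3 each).

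let-7i-5p and let-7g-5p took smaller parts of the family in LPD. let-7i-5p made up 8.67, 11.02 and 17.785% in LPD, against 25.4, 21.5 and 24.2% in EPD and 17.792, 25.3 and 25.6% in Control. let-7g-5p made up 4.07, 3.28 and 5.10% in LPD, 8.88, 7.99 and 6.77% in EPD, and 7.21, 8.09 and 8.27% in Control. Both ratios lay lower in every LPD library than in any other, though LPD 3 all but touched Control 1 for let-7i-5p (exact permutation p = 0.1, n = 3 each). The log2 ratio to the other members differed by -1.10 for let-7i-5p and by -0.998 for let-7g-5p between LPD and Control, against 0.79 for let-7a-5p, 0.72 for let-7d-5p and 1.21 for let-7e-5p. let-7b-5p, let-7c-5p, let-7f-5p and miR-98-5p overlapped between LPD and both other groups. In EPD against Control only let-7d-5p was apart, lower by 0.41 on the log2 scale (exact permutation p = 0.1, n = 3 each). A single separation among the 9 members is near what that probability of 0.1 would give without any difference.

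let-7g-5p and let-7i-5p are the members with U at base 12, as the sequences above show. The pair held 12.7, 14.3 and 22.9% of the family's counts in LPD, 34.2, 29.5 and 31.0% in EPD, and 25.0, 33.4 and 33.8% in Control. The 6 members with G at that base held 75.7, 74.5 and 58.3% in LPD, 54.3, 56.1 and 52.1% in EPD, and 63.2, 53.3 and 51.0% in Control, so LPD 3 was below Control 1. let-7f-5p, with A there, held 11.2 to 18.9% in LPD, 11.4 to 16.9% in EPD and 11.8 to 15.2% in Control. This grouping by base was made after the values were seen and has no test. let-7g and let-7i also differ from the rest by U18C.

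**Figure D4:**
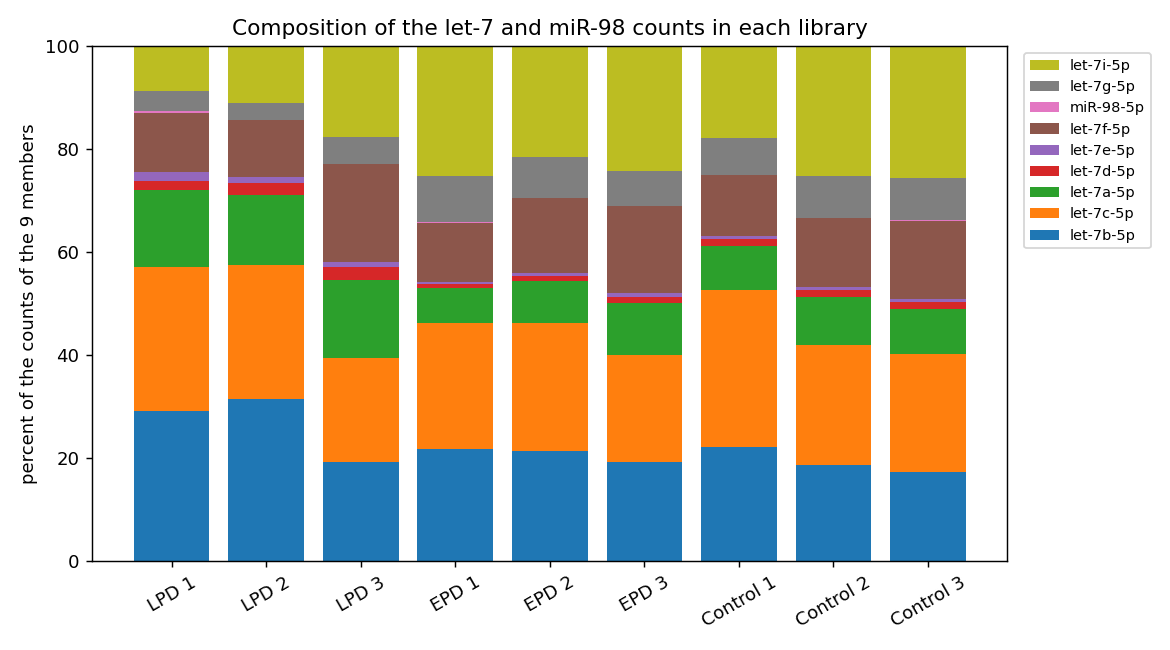
Share of each member in the summed counts of the 9 members (percent), as stacked bars for the LPD, EPD and Control libraries. let-7i-5p and let-7g-5p at the top of the bars together take 12.7 to 22.9% in LPD and 25.0 to 34.2% in the other libraries.

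In the 4 pairs that differ at a single base, both members have nearly the same sequence to be ligated, read and aligned. These are also the neighbours between which reads may be exchanged, which cannot be told apart here from true levels. let-7b-5p over let-7c-5p (G17A, let-7b first) had log2 ratios of 0.06, 0.27 and -0.08 in LPD, -0.17, -0.21 and -0.12 in EPD, and -0.46, -0.33 and -0.41 in Control. The 3 groups did not overlap, with EPD between LPD and Control. The difference was 0.49 for LPD against Control, 0.23 for EPD against Control and 0.25 for LPD against EPD (exact permutation p = 0.1 each, 0.171 adjusted over 12 tests, n = 3 each). let-7b-5p and a copy of let-7c-5p are neighbours on chromosome 7, and the second copy of let-7c is elsewhere.

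let-7a-5p over let-7f-5p (G12A) had log2 ratios of 0.36, 0.28 and -0.32 in LPD, -0.77, -0.84 and -0.72 in EPD, and -0.46, -0.51 and -0.78 in Control. Its mean in LPD stood 0.69 above that of Control and 0.88 above that of EPD. let-7a-5p over let-7c-5p (A19G) had -0.92, -0.94 and -0.42 in LPD, -1.87, -1.62 and -1.03 in EPD, and -1.83, -1.32 and -1.37 in Control. Here the LPD mean stood 0.75 above that of Control and 0.74 above that of EPD. In both pairs the LPD libraries lay above all others (exact permutation p = 0.1, the smallest possible, adjusted 0.171, n = 3 each). Both contain let-7a-5p, called higher in the same libraries, so they are no independent evidence of its rise. Separation in other pairs of miRNAs was not counted. let-7a-5p over let-7e-5p (U9G) overlapped between LPD and Control, with a difference of -0.50 (exact permutation p = 0.2, n = 3 each), so that a different change of these 2 members was not shown.

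**Figure D5:**
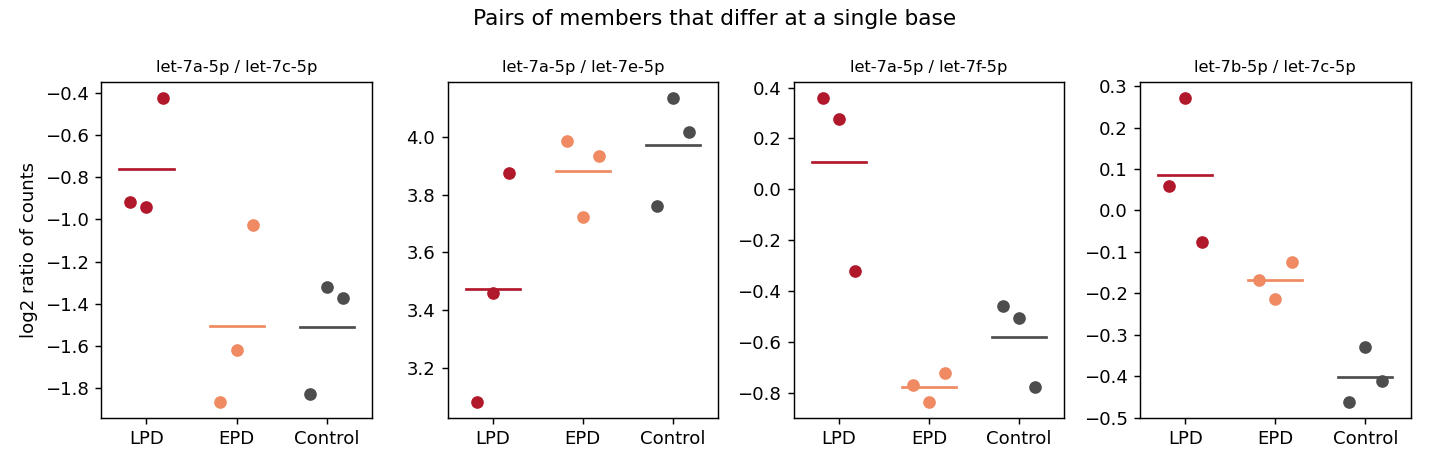
Log2 ratio of counts for the 4 pairs of members that differ at 1 base, in LPD, EPD and Control, with single libraries as points and means as bars (each panel has its own scale). let-7b-5p over let-7c-5p shows 3 groups without overlap, from -0.08 to 0.27 in LPD, -0.21 to -0.12 in EPD and -0.46 to -0.33 in Control.

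The opposite 3p arms of the same hairpins, mostly discarded when a let-7 strand is loaded into Argonaute, were rare. Of the 12 listed, 12 were in the matrix and 6 could be tested. In LPD against Control 0 of these rose and 1 fell, beside 4.42% and 32.7% of all miRNAs tested. let-7d-3p, the most abundant, had 660 ± 160 CPM in LPD, 487 ± 43.2 CPM in EPD and 430 ± 125 CPM in Control (SD, n = 3 each), and did not pass in LPD against Control (log2 fold change 0.62, SE 0.38, adjusted p = 0.253 by edgeR). Whether it differed from its 5p arm in this was not tested. let-7c-1-3p was called lower in LPD against Control (adjusted p = 0.0202) and against EPD (adjusted p = 0.0125). It had 0 counts in every LPD library, against 33, 13 and 26 counts in EPD and 22, 3 and 15 in Control. Its means of 16.3 CPM in EPD and 10.1 CPM in Control were far under what 3 estimated molecules would give in LPD, and no fold is given. let-7a-1-3p and let-7c-2-3p had the same 9 counts because they have 1 mature sequence:
let-7a-1-3p: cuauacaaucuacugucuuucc
let-7c-2-3p: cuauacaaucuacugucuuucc
Neither passed in any comparison (adjusted p from 0.723 to 0.995).

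The miR-99, miR-100 and miR-125 miRNAs encoded in clusters with let-7c-1, let-7a-2 and let-7e had negative values in LPD against Control. None of the 5 had a positive log2 fold change against Control, 2 fell, and their median was -2.16. Over all 294 miRNAs 30.6% were positive, 32.7% fell and the median was -1.04. miR-125b-5p had 2216, 1764 and 2558 CPM in LPD, against 15147, 13934 and 11783 CPM in Control. This was the smallest p of all 294 miRNAs, with a change of -2.64 on the log2 scale (SE 0.25, adjusted p = 5.72e-04 by edgeR). miR-99a-5p had 0, 0 and 138 CPM in LPD, against 1146, 796 and 674 CPM in Control (adjusted p = 0.0415), and its LPD values again lay under the level of 3 estimated molecules. So did those of miR-99b-5p (0, 112 and 185 CPM) and miR-100-5p (149, 0 and 0 CPM), and the median of -2.16 was the value of miR-99b-5p. miR-125a-5p, beside let-7e in the genome, had a value of -0.15 (SE 0.41, adjusted p = 0.790), against 1.81 for let-7e-5p, and the difference was not tested. In EPD against Control 0 of the 5 were called. In LPD against EPD miR-125b-5p fell (-2.53, adjusted p = 7.91e-04 by edgeR) and the others did not pass, with miR-125a-5p positive (0.16).

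The miRNAs whose pattern lay nearest to the summed members were miR-15a-5p, miR-26a-5p, miR-126a-3p, miR-150-5p and miR-30e-5p. Nearness was the root mean square difference of log2 CPM, centred on each miRNA's mean over the 9 libraries, among the 124 miRNAs with counts in all of them. It was 0.30, 0.33, 0.36, 0.36 and 0.38 for these 5 non-members. Among the members it was 0.18 for let-7c-5p, 0.26 for let-7f-5p, 0.28 for let-7b-5p and 0.39 for let-7a-5p. The other 5 members lay farther off, with let-7g-5p at 0.48 (rank 18 of the 124), let-7d-5p at 0.49 (rank 19) and let-7i-5p at 0.54 (rank 26). let-7e-5p was at 0.63 (rank 33) and miR-98-5p at 1.52 (rank 103), so the members did not share 1 pattern. The members are themselves part of the sum. None of the 5 was called in any comparison (edgeR adjusted p from 0.0621 to 0.995).

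Markers of blood cells moved with the family in part. The 6 red cell miRNAs in the matrix, of 8 listed names, summed to 236145 to 372968 CPM in LPD, 153266 to 394929 CPM in EPD and 84628 to 169380 CPM in Control. In LPD against Control 1 of the 6, miR-486, rose (log2 fold change 2.18, SE 0.65, adjusted p = 0.0264). LPD 3, low in let-7b-5p and let-7c-5p, was also the lowest LPD library in this sum, and 1 of the 6 was at 0 in LPD 1 and in LPD 2. Most of the sum was miR-16-5p, with 323874, 310109 and 215047 CPM in LPD 1, LPD 2 and LPD 3. miR-486 and miR-144-3p were also lowest in LPD 3 within LPD, and miR-144-5p lay between. miR-451-5p (1126, 756 and 1530 CPM) and miR-363-3p went the other way and were highest in LPD 3. EPD 1 had the highest red cell sum of all libraries. It was also the highest of the 9 in let-7g-5p and let-7i-5p and the highest of the EPD and Control libraries in let-7b-5p, whereas its let-7a-5p, let-7d-5p and let-7e-5p lay within the range of those libraries. The haemolysis index, a log2 ratio of the red cell miR-451-5p over miR-23a-3p, was -3.05, -3.37 and -2.58 in LPD, -1.35, -3.63 and -4.01 in EPD, and -3.75, -4.58 and -2.81 in Control. The 6 platelet miRNAs found, of 7 listed, summed to 147973 to 226842 CPM in LPD, 165188 to 255865 CPM in EPD and 174301 to 200334 CPM in Control, with 1 called higher and 2 lower in LPD against Control. The 5 leukocyte miRNAs summed to 40221 to 54293 CPM in LPD, 77193 to 91476 CPM in EPD and 57206 to 66819 CPM in Control, with 1 called lower. The 5 hepatocyte miRNAs found, of 6 listed, summed to 28747 to 53581 CPM in LPD, 33126 to 71897 CPM in EPD and 54339 to 715162 CPM in Control, with 2 called lower and 1 at 0 in each LPD library. Over all 294 miRNAs 4.42% were called higher and 32.7% lower in LPD against Control. The part of red cells, of depth and of the few molecules per library in the LPD values of the members was not tested.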

How the data were processed

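The authors deposited raw read counts, whole numbers for each of 567 mature miRNAs in 9 serum libraries; between the matrix and the single files 0 values differed. The labels' protocols name a miRNeasy kit for serum RNA and the QIAseq miRNA kit for the libraries. The submitters' processing notes give the build mRatBN7.2. Which aligner and annotation were used, and whether molecular identifiers were collapsed, is not given in the sources used here, so intervals cover counting error only.

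Titles gave groups and replicate numbers. filterByExpr by group (10 counts, 15 in total) left 294 miRNAs. All 9 libraries were fitted together without covariates in edgeR 4.0.16 (TMM, robust quasi-likelihood F-test), adjusted by Benjamini-Hochberg over the 294 with a threshold of 0.05. This assumes 1 spread for the 3 groups. Over the 294, log2 CPM correlated at only 0.75 to 0.82 between LPD libraries, against 0.92 to 0.98 within Control and within EPD. The adjusted p of comparisons with LPD may thus be too small, which was not tested. Alternatives used DESeq2, limma-voom, other scalings and filters, and left-out libraries. Molecules were estimated as the number that, drawn from the mean profile of Control and EPD, leaves as many miRNAs without counts as observed. The code was tested on simulated data. Same-numbered libraries of different groups showed little common deviation (correlations from -0.11 to 0.06), and the numbers were not taken as pairs. The submitters' short names give EPD and LPD libraries the same prefix and numbers. Whether the same animals were sampled at both stages is not stated. Same-numbered EPD and LPD libraries had correlations of 0.058, 0.040 and 0.033, and differently numbered ones -0.083 to 0.050. So few libraries cannot tell repeated sampling from separate animals.

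Members, lists and tests were chosen with earlier results of these data known. All 9 members are described, and of the 3p arms and cluster partners those past the threshold, up to 4 a list. The 5 nearest non-members follow a fixed measure, and marker miRNAs are named where they moved with a result. let-7d-3p, let-7a-1-3p, let-7c-2-3p, miR-125a-5p and the tests of 1-base pairs were chosen after the values were seen.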

Additional observations from a re-analysis of the deposited data

How the results depend on the processing

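For the members that passed, no scaling, filter or other tool ended a call; only left-out libraries did, as given above. In LPD against Control, 3 members were called, 5 with DESeq2 (let-7b-5p and let-7f-5p added), 4 with miRNAs counted in all 9 libraries (let-7b-5p added) and 1 to 6 when a library was left out (1 without Control 3, 6 without LPD 3). In LPD against EPD, 3 were called, and 1 to 4 when a library was left out (1 without EPD 1, LPD 1 or LPD 2, 4 without LPD 3). Over all miRNAs, 109 calls in LPD against Control became 38 with only miRNAs counted in all 9 libraries, 52 with only the 2 groups fitted and 31 on counts per molecule, and 108 calls in LPD against EPD became 35, 67 and 31. In EPD against Control 0 became 1 with DESeq2 and with miRNAs counted in all 9 libraries, and 0 to 1 when a library was left out (1 without Control 2).

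The difference in family share between EPD and Control, 0.89 points, reversed to -0.41 without miR-122-5p in the totals and ran from -1.48 (without Control 2) to 2.59 when a library was left out. That of LPD over Control, 4.88 points, was 8.40 without the most abundant miRNA of each library in the totals and 2.51 without Control 2. That of LPD over EPD, 3.99 points, was 7.49 without that miRNA, 6.36 without LPD 3 and 2.55 without LPD 2.

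Whether same-numbered libraries belong together is not stated. With the number as a block, LPD against Control gave 3 members and 101 miRNAs, LPD against EPD 3 and 101, and EPD against Control 0 and 0. The block turned miR-98-5p to -0.41 in LPD against Control and to -0.48 against EPD, and let-7c-5p to 0.019 in EPD against Control.

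Log2 fold changes near 0 turned elsewhere. miR-98-5p had -0.94 (LPD against Control) and -0.89 (against EPD) with limma-voom, and with left-out libraries -1.10 to 0.76 and -1.21 to 0.66. In EPD against Control miR-98-5p had -0.047 with DESeq2 or with DESeq2 size factors, -0.046 with limma-voom, -0.065 with library totals, -0.087 with miRNAs counted in all 9 libraries and -0.14 to 0.19 with left-out libraries. let-7c-5p had 0.033 with limma-voom, 0.032 with factors from the other miRNAs, 0.14 without a filter, 0.088 with only the 2 groups, 0.054 on counts per molecule and -0.11 to 0.39 with left-out libraries. let-7a-5p had -0.026 with miRNAs counted in all 9 libraries and -0.093 to 0.23 with left-out libraries, and let-7e-5p -0.012 to 0.42. The cause was not tested.

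With left-out libraries, the log2 ratio of a member to the others also turned where the groups overlapped. In LPD against Control it ran from -0.19 to 0.12 for let-7c-5p, -0.27 to 0.18 for let-7f-5p and -2.21 to 0.26 for miR-98-5p. In LPD against EPD it ran from -0.024 to 0.28 for let-7c-5p, -0.36 to 0.085 for let-7f-5p and -2.08 to 0.39 for miR-98-5p. In EPD against Control it ran from -0.30 to 0.032 for let-7a-5p, -0.26 to 0.015 for let-7c-5p, -0.16 to 0.17 for let-7e-5p, -0.062 to 0.27 for let-7f-5p, -0.10 to 0.11 for let-7g-5p, -0.14 to 0.20 for let-7i-5p and -0.27 to 0.015 for miR-98-5p.

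DESeq2 size factors shifted the log2 fold changes of all miRNAs by a median of 0.23 in LPD against Control and 0.26 against EPD. The median shift was 0.28 and 0.31 with DESeq2, and 0.28 and 0.33 with miRNAs counted in all 9 libraries. By the estimate, let-7d-5p, let-7e-5p and miR-98-5p rested on the fewest molecules of the members in LPD. The estimate is rough. It gave 0.04 molecules for miR-98-5p in LPD 2, and more molecules than counts in Control 1 and Control 3 (0.859 and 0.990 counts per molecule). Groups of 3 were not tested for outlying libraries.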
